A study of Mus musculus with 6 samples.

Results

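The genes of cholesterol and fatty acid synthesis were followed in leukemia cells of mice in which the transcription factor Pax5 is restored by doxycycline (dox). The 36 genes were taken by symbol, 17 of them enzymes of the sterol branch, 10 of the fatty acid branch and 9 that control these branches or move sterol out of the cell, among 26286 genes in the deposited count table. All 36 were found, and 35 passed the low-count filter. The remaining member, Hmgcs1, was listed at 0 counts in all 6 libraries.

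The dox group held 3 libraries from mice fed dox for 3 days, sorted as GFP-mid cells, and the untreated group held 3 libraries from mice without dox, sorted as GFP-high cells. All 6 came from the same tri-transgenic leukemia, A024, sorted from bone marrow of Rag1 knockout mice, and the design text counts a mouse for each library. The labels do not describe the construct. In the model as it is generally known, given here as background, a tetracycline-dependent hairpin RNA lowers Pax5 and marks the cells with GFP until dox shuts it off, beside an activated Stat5 transgene. P-values here measure the spread between mice that carry 1 leukemia. Strain and age of the mice were not in the labels used here. Dox itself and the change of sort gate cannot be told apart from the return of Pax5, because no library with only one of them was analysed here.

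Cells build cholesterol from acetyl-CoA through mevalonate, isoprenoid units, squalene and lanosterol. They build palmitate from the same acetyl-CoA and then lengthen and desaturate it. Both branches are governed by SREBP transcription factors, which the escort protein SCAP carries from the endoplasmic reticulum to the Golgi when sterol is low and which INSIG proteins hold back when sterol is plentiful. The nuclear receptors LXR work at the other end: when sterol is plentiful they raise the cholesterol exporters ABCA1 and ABCG1, the SREBP gene Srebf1 and several fatty acid genes.

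Promoters are shown before the values, as the letters on which SREBP partners and LXR are known to act. RefSeq windows from 250 bases before to 50 bases after the start site (build GRCm38.p6, while the counts were made on mm9, so only the letters are used) matched 28 of the 36 members. An LXR-type repeat, searched on both strands as GGTNA, then any 5 bases, then GGTNA again, stood in the windows of 4 of these 28 genes, against 0.818% of 27025 genes with a window and 0.604% of the genes tested here. The letters were chosen with the known elements of Abca1 and Srebf1 in mind, so the matches in those 2 genes are no finding. The windows of Abca1 (chr4:53159846-53160145, minus strand), Srebf1 (chr11:60210422-60210721, minus strand) and Fasn (chr11:120824498-120824797, minus strand) are given 5′ to 3′ with the repeat in capitals, because the first of them rose after dox, the second did not pass and the third fell.
Abca1: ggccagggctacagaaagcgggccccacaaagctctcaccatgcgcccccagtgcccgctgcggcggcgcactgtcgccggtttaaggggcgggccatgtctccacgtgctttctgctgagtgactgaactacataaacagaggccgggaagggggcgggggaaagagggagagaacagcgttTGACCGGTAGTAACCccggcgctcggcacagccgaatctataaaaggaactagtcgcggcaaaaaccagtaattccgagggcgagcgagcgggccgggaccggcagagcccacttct
Srebf1: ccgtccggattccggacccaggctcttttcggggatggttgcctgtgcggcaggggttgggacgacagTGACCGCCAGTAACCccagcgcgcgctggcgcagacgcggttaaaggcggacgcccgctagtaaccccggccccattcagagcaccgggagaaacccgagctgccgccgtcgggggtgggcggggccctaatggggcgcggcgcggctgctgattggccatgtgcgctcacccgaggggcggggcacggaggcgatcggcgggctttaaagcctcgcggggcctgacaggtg
Fasn: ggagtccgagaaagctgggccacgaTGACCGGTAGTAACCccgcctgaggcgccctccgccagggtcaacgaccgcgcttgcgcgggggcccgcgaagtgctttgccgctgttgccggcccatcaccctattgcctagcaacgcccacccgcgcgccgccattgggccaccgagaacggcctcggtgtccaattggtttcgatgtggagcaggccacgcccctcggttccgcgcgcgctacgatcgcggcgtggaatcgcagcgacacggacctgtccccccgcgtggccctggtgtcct
The match in Fasn was letter for letter that of Abca1, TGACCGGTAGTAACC, and the remaining match was TGACCCATAGTAACC in Acsl3. The CCAAT box, bound by NF-Y and known to assist SREBP at sterol genes, was present on 1 strand or the other in all 14 sterol enzymes with a window, against 41.1% of all genes and 43.5% of the genes tested here, in 4 of 7 fatty acid genes and in 4 of 7 control and transport genes. Fdps, Fdft1 and Sqle had no window, and enzymes that did not fall, such as Mvd, Ebp and Dhcr7, held the box too. The windows of Idi1 (chr13:8885356-8885655, plus strand) and Cyp51 (chr5:4104648-4104947, minus strand), both among the deeper sterol falls below, show the box in capitals.
Idi1: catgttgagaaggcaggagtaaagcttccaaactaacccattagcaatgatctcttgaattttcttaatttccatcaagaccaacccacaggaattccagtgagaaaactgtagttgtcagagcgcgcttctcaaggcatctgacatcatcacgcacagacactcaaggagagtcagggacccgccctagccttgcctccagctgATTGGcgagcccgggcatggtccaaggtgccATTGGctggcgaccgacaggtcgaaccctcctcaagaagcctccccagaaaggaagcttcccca
Cyp51: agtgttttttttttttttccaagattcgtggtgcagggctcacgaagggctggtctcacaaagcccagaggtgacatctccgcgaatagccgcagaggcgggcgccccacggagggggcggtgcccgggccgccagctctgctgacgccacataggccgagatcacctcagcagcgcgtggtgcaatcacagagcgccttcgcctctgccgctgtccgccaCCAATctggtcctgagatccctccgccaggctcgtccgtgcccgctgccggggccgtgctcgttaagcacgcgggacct
The GC box GGGCGG, a site of Sp1, stood in 13 of the 14 sterol genes, 3 of 7 fatty acid genes and 6 of 7 control and transport genes, against 38.2% of all genes but 68.3% of the genes tested here. A strict SRE, TCACNCCAC, was found in Hmgcs1 alone among the 28, against 1.44% of all genes and 1.33% of the genes tested here. The core of the Pax5 site, GCGTGAC, was in 0 of 28 windows, against 2.43% of all genes and 4.76% of the genes tested here. A match is a description of letters and not evidence of binding, and a missing match says nothing about the factor.

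Total counts ran from 14432213 to 15612435 in the dox libraries and from 14185203 to 15053258 in the untreated libraries. Levels are given as CPM, the reads of a gene scaled to library size with edgeR's TMM factors, and a gene was called when its adjusted p in edgeR's quasi-likelihood test was under 0.05 over 12275 genes tested. The change was broad: 53.6% of all genes tested were called, 27% higher and 26.6% lower after dox. Pax5 measured 227.2, 281.2 and 230.6 CPM in the dox libraries and 153.8, 93.45 and 105.2 CPM in the untreated libraries (log2 fold change 1.07, SE 0.17, adjusted p = 0.000695), so every dox library was above every untreated one. Of 10 markers of the leukemia's own B lineage, all were tested, 9 rose and Cd24a fell. Cd24a (981 to 1128 CPM after dox, 1920 to 1933 CPM untreated) and Vpreb1 (1335 to 1460 CPM after dox, 777.9 to 805.7 CPM untreated) were the most abundant.

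Other marker lists also moved. Of 10 neutrophil markers, 9 were tested and all 9 were called higher, beside 27% of all genes, but the groups overlapped for 5 of them. Their summed levels were 535.5, 115.3 and 254.4 CPM in dox replicates 1, 2 and 3 and 89.36 to 115.4 CPM in untreated libraries. Dox replicate 2 thus lay within the untreated range. S100a9 (31.19 to 169.9 CPM after dox, 29.3 to 39.14 CPM untreated) and S100a8 were the most abundant. Of 12 macrophage and monocyte markers, 7 of 8 tested rose, and the sum was 102.9, 42.67 and 55.7 CPM in dox replicates 1, 2 and 3, against 19.12 to 26.98 CPM in untreated libraries. The most abundant was Lyz2, which neutrophils express too, with 75.22, 16.71 and 34.96 CPM in dox replicates 1, 2 and 3 and 13.15 to 18.69 CPM in untreated libraries. Without Lyz2, a choice made after seeing the data, the other 11 summed to 27.71, 25.97 and 20.74 CPM after dox and 5.971 to 10.41 CPM untreated, with Cd68 the most abundant. Fat cell markers were near 0: Plin1, Cfd, Cidec and Lep were at 0 counts in all 6 libraries, and the list of 10 summed to 1.216 to 2.567 CPM after dox and 0.136 to 0.738 CPM untreated, with Lpl and Fabp4 the most abundant and Lpl called higher. Erythroid markers, led by Hbb-b1 and Hba-a1, summed to at most 8.753 CPM after dox and 5.574 CPM untreated, and T and NK cell markers, led by Klrb1c and Cd4, to at most 9.537 CPM after dox and 4.758 CPM untreated (Cd3e and Cd8a at 0). Stroma and endothelium markers summed to 130 to 160.9 CPM after dox and 94.76 to 102.9 CPM untreated, nearly all Pecam1, which B lineage cells also express, followed by Col1a1. In bulk samples, fewer cells of a type and less RNA per cell cannot be told apart.

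All 12 proliferation genes were lower after dox, beside 26.6% of all genes tested. Their sums were 3854 to 4555 CPM in dox libraries and 7985 to 9458 CPM in untreated libraries. Mki67 and Top2a were the most abundant of them. The part of proliferation and of the marker lists in the differences below was not tested. Among 10 genes of cell handling, 9 were tested, 4 rose (Jun, Atf3, Hspa1a and Hspa1b) and 2 fell (Dusp1 and Ier2). These counts stand beside 27% of all genes higher and 26.6% lower.

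The sterol branch was lower after dox in an unbroken run of 6 enzymes from Idi1 to Cyp51 and at 2 further steps. Of 16 sterol enzymes tested, 8 fell, 1 rose and 7 did not pass, beside 26.6% of all genes lower and 27% higher. The median log2 fold change was −0.28, against 0.01 for all genes tested. The enzymes summed to 318.6, 292.4 and 331.5 CPM in dox replicates 1, 2 and 3 and to 447.4, 405.2 and 448.1 CPM in untreated replicates 1, 2 and 3, with no overlap. Every dox library was below every untreated one for 9 of the 16 and above for 2, against 31% and 31.2% of all genes tested. Of the falls, 5 were at least 1.5-fold, as were the falls of 11.8% of all genes. No fall of a sterol enzyme exceeded 2.49-fold.

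**Figure D1:**
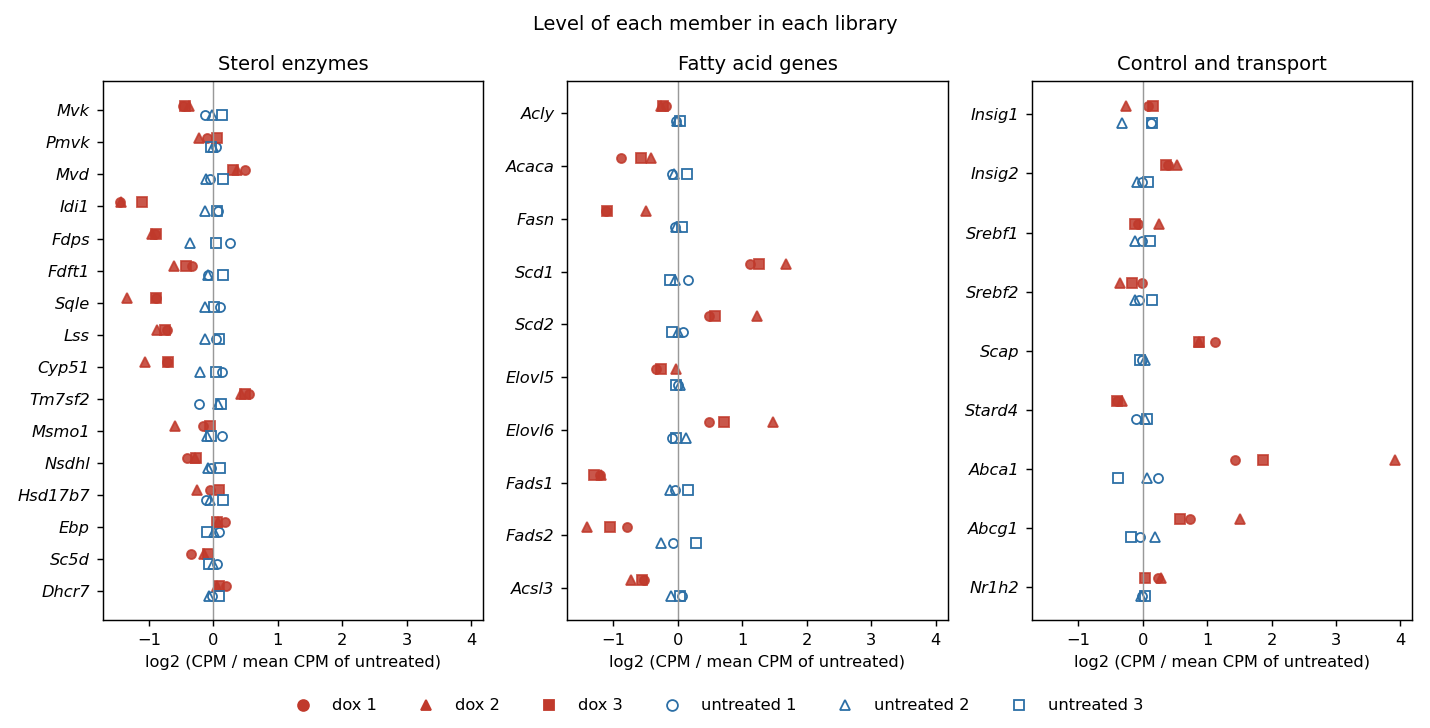
Level of each of the 35 members tested in each library, as the log2 ratio of its CPM to the mean CPM of the untreated libraries. Filled red symbols are the 3 dox libraries, open blue symbols the 3 untreated libraries, and the symbol's shape gives the replicate number. Idi1, Sqle and Cyp51 lie left of 0 in every dox library, Scd1 lies right of 0 in every dox library, and Abca1 in dox replicate 2 stands apart from all other points.

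In the mevalonate arm, Mvk, the kinase that phosphorylates mevalonate, measured 15.66, 16.78 and 16.07 CPM after dox and 19.99, 21.4 and 24 CPM untreated. The groups did not overlap, and it fell (log2 fold change −0.43, SE 0.10, adjusted p = 0.00574). The next kinase, Pmvk, did not pass (−0.08, 95% interval −0.30 to 0.14). Mvd, the decarboxylase that makes isopentenyl diphosphate, measured 12.7, 11.63 and 11.14 CPM after dox and 8.737, 8.386 and 9.993 CPM untreated and rose (0.39, SE 0.13, adjusted p = 0.0279). That call is fragile: it was lost without dox replicate 1 (adjusted p = 0.0912), without untreated replicate 1 (adjusted p = 0.0703), without untreated replicate 2 (adjusted p = 0.103), with DESeq2 (adjusted p = 0.0707) and with no low-count filter (adjusted p = 0.0549).

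Idi1, the isomerase that turns isopentenyl into dimethylallyl diphosphate, had the deepest fall of the 35 members. It measured 28.03, 28.54 and 35.53 CPM after dox and 80.24, 69.77 and 79.74 CPM untreated, so every dox library held less than every untreated one by a wide margin. The fall was 2.49-fold (log2 fold change −1.32, SE 0.11, adjusted p = 1.8e-05), and 1.4% of all genes tested had a lower value. Fdps, which joins the units into farnesyl diphosphate, measured 5.857, 5.639 and 5.89 CPM after dox and 13.07, 8.52 and 11.22 CPM untreated (−0.91, SE 0.17, adjusted p = 0.00193). Its untreated libraries scattered more than its dox libraries did. The deposited counts of Fdps and Idi1 may share reads with other loci. In GENCODE vM21, 11.7% of the 50-base stretches of the longest Fdps transcript occur in transcripts of other genes. For Idi1 the share was 30.5%. Exons of Fdps also overlap Gm43738 on the same strand over 1124 bases, and those of Idi1 overlap Gm48574 on the opposite strand over 323 bases.

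Hmgcs1, the enzyme that forms HMG-CoA at the head of the pathway, is listed at 0 in every library, which allows at most 3 counts, or 0.192 to 0.209 CPM after dox and 0.201 to 0.21 CPM untreated. As a gene that sterol-making cells use, it is reported here as listed at 0 and with no statement on its expression. Whether read counting gave this value was not tested.

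In the squalene arm and the steps after it, 5 of 11 enzymes fell and 6 did not pass, beside 26.6% of all genes lower and 27% higher. Fdft1, squalene synthase, changed by −0.45 (SE 0.11, adjusted p = 0.00884), with 14.55 to 17.7 CPM after dox and 20.9 to 24.81 CPM untreated. Fdft1 overlaps exons of Ctsb on the opposite strand, and Ctsb rose by 0.59, and with the strand setting of the counts unknown their reads cannot be told apart. Sqle, the oxygenase that commits squalene to sterol, measured 26.19, 19.07 and 26.19 CPM after dox and 51.93, 44.14 and 48.94 CPM untreated. Its fall was 2.03-fold (−1.02, SE 0.13, adjusted p = 0.000163).

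Lss, which closes the rings to lanosterol, measured 9.279, 8.353 and 9.091 CPM after dox and 15.73, 13.89 and 16.18 CPM untreated (−0.78, SE 0.12, adjusted p = 0.000526). Cyp51, the lanosterol demethylase, measured 30.34, 23.88 and 30.54 CPM after dox and 55.01, 43 and 51.53 CPM untreated (−0.82, SE 0.12, adjusted p = 0.000487). Neither gene's groups overlapped. Nsdhl, of the complex that removes methyl groups from the ring, changed less (−0.32, SE 0.10, adjusted p = 0.0238), and its call was lost without dox replicate 1 (adjusted p = 0.0757), without untreated replicate 3 (adjusted p = 0.0969) and with DESeq2 (adjusted p = 0.054).

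The other enzymes after Cyp51 gave no call. Msmo1, which oxidises the same methyl groups as the Nsdhl complex removes, measured 16.78, 12.53 and 18.25 CPM after dox and 20.62, 17.51 and 18.29 CPM untreated (−0.24, 95% interval −0.57 to 0.08). Hsd17b7 (−0.07, −0.32 to 0.19), the keto reductase, and Sc5d (−0.19, −0.39 to 0.01), a desaturase of the ring, did not pass either. Ebp, an isomerase, had 0.10 (−0.08 to 0.29) and Dhcr7, the last reductase of one route, 0.12 (−0.06 to 0.30). The intervals of Ebp and Dhcr7 end well above the falls of Idi1, Sqle, Lss and Cyp51, and the difference between genes was not tested. Tm7sf2, a sterol reductase at 3.62 to 3.949 CPM after dox and 2.307 to 2.923 CPM untreated, was above every untreated library in every dox library but missed the threshold (0.49, adjusted p = 0.0601). Overlaps also touch Lss (2.9% of its 50-base stretches, with 4930483K19Rik) and Cyp51 (3.2%, mainly Akap9, which rose by 0.48). Exons of Tm7sf2, with a deposited length of 1479 bases, overlap Vps51 on the same strand over 532 bases.

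**Figure D2:**
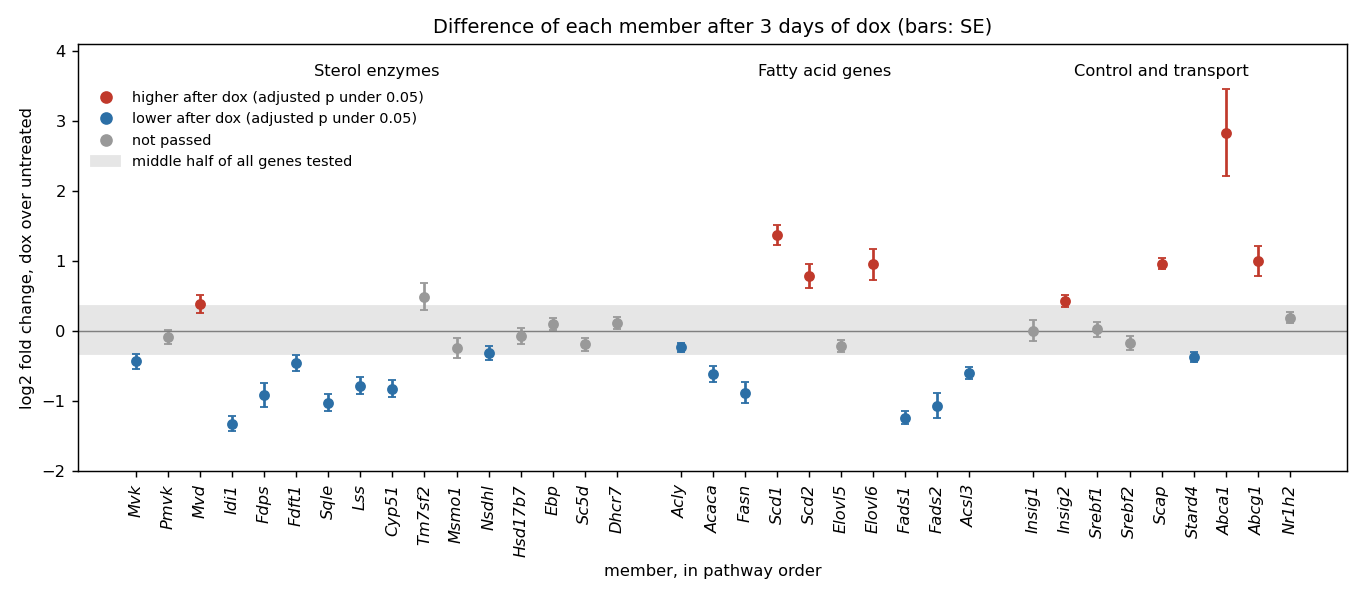
Log2 fold change of each member (dox over untreated, vertical axis) in pathway order within its branch, with bars of 1 SE. Red points passed as higher, blue as lower and grey points did not pass, and the grey band holds the middle 50% of all genes tested. Blue points run from Idi1 to Cyp51, and among the fatty acid genes Scd1, Scd2 and Elovl6 stand in red between the blue points of Fasn and Fads1.

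Levels between genes were compared per length, as RPKM, the CPM divided by gene length in kilobases, from the gene lengths in the deposited table. In untreated cells Idi1 was the highest sterol enzyme at 26.71 ± 2.06 RPKM (SD, n = 3), above Sqle (17.59 ± 1.43 RPKM) and Ebp (17.1 ± 1.1 RPKM), which did not differ beyond their spread. After dox the order was Ebp (18.35 ± 0.87 RPKM), Sc5d (13.07 ± 1.21 RPKM) and Pmvk (12.56 ± 1.18 RPKM), of which Sc5d and Pmvk lay within each other's spread. Idi1 stood at 10.71 RPKM after dox.

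**Figure D3:**
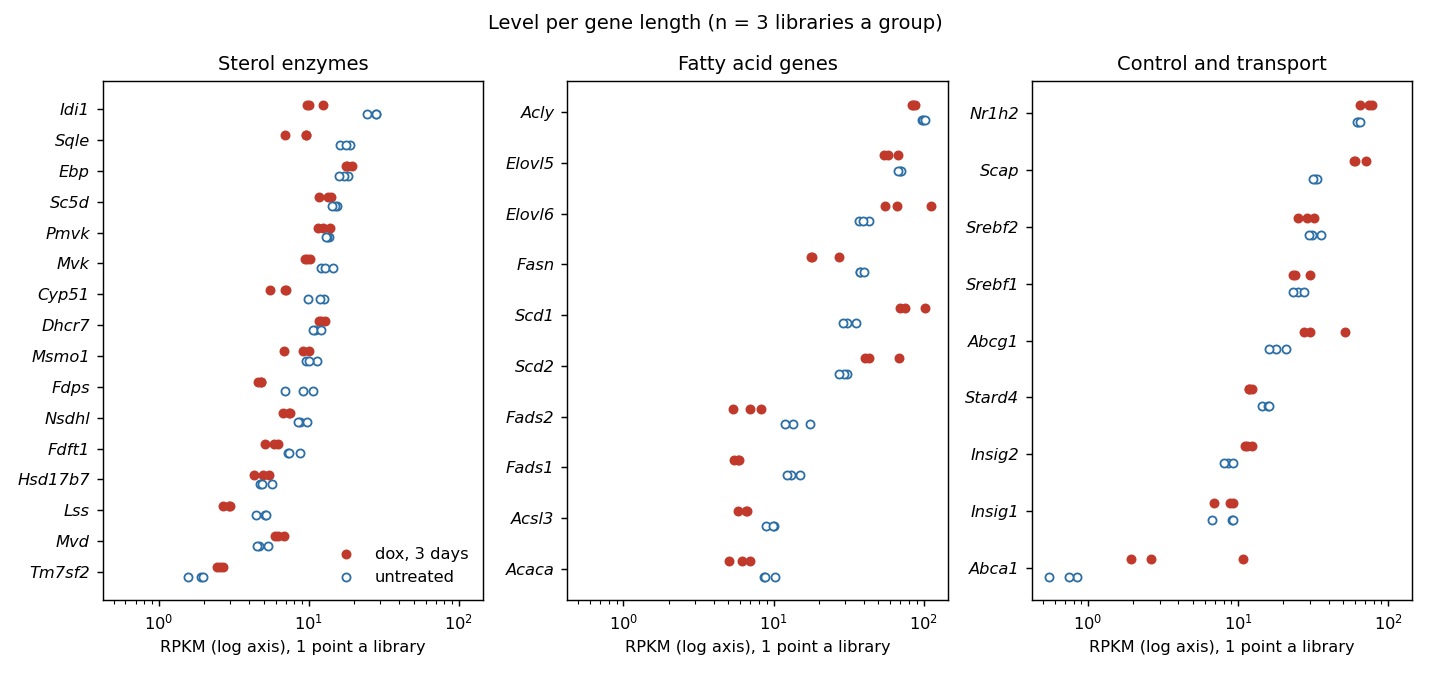
Level of each member per gene length in each library (RPKM, logarithmic axis), filled red for dox and open blue for untreated, in the order of the untreated mean. The fatty acid genes Acly, Elovl5, Elovl6 and Scd1 lie above every sterol enzyme in both groups, and Idi1 and Sqle leave the top of the sterol panel after dox.

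The fatty acid branch split. Of its 10 genes, 6 fell, 3 rose and 1 did not pass, beside 26.6% lower and 27% higher among all genes, so 9 of 10 were called against 53.6% of all genes. Groups did not overlap for any of the 10, against 62.2% of all genes. The 3 rises were at least 1.5-fold, as were the rises of 14.5% of all genes. Without dox replicate 2, the rise of Scd2 was 1.44-fold. Of the falls, 5 were at least 1.5-fold, beside 11.8% of all genes. The fallers were the 3 enzymes that build palmitate, both desaturases of polyunsaturated fat and an acyl-CoA synthetase, and the risers were Scd1, Scd2 and Elovl6.

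Acly, which cleaves citrate to cytosolic acetyl-CoA for both branches, had the highest mean of the fatty acid genes per length in both groups. It stood at 85.48 ± 2.39 RPKM after dox and 100.1 ± 2.2 RPKM untreated (SD, n = 3 each). After dox, Scd1 (82.08 ± 17.09 RPKM) and Elovl6 (77.66 ± 29.52 RPKM) did not differ from Acly beyond their spread. Acly measured 378.4, 358.4 and 364.4 CPM after dox and 422, 427.5 and 440.4 CPM untreated, a small but separated fall (−0.23, SE 0.06, adjusted p = 0.0131). That fall missed the threshold without untreated replicate 3 (adjusted p = 0.0575). Acaca, acetyl-CoA carboxylase, the committed step, measured 45.41, 62.65 and 55.89 CPM after dox and 78.56, 79.57 and 91.77 CPM untreated (−0.61, SE 0.12, adjusted p = 0.00222). Its count is uncertain, since 52.6% of the 50-base stretches of its longest transcript recur in the annotated gene Gm5182.

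Fasn, fatty acid synthase, measured 177.1, 270.7 and 178.1 CPM after dox and 373.1, 376.8 and 400 CPM untreated. All dox libraries were below all untreated ones, with dox replicate 2 nearest to them, and the fall was 1.84-fold (−0.88, SE 0.15, adjusted p = 0.00106).

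Scd1, a stearoyl-CoA desaturase that makes oleate, measured 334.8, 490.8 and 365.5 CPM after dox and 171, 149.4 and 140.6 CPM untreated. It rose 2.58-fold (1.37, SE 0.14, adjusted p = 5.78e-05). Its neighbour and close paralog Scd2 measured 222.3, 371.8 and 237.1 CPM after dox and 168.7, 160.5 and 150 CPM untreated, a rise of 1.73-fold (0.79, SE 0.17, adjusted p = 0.00383), and dox replicate 2 was again the highest. The desaturase paralogs share 4.7% (Scd1) and 4% (Scd2) of their 50-base stretches with each other or with Scd3 and Scd4, so some of their reads could be exchanged, and Scd3 (1.38) and Scd4 (1.87) rose as well on the log2 scale. Per length, Scd2 over Scd1 was 0.589, 0.672 and 0.576 in dox replicates 1, 2 and 3 and 0.875, 0.953 and 0.947 in untreated replicates 1, 2 and 3.

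Elovl6, the elongase of saturated and monounsaturated chains, measured 331.5, 661.9 and 393 CPM after dox and 222.4, 258.9 and 233.6 CPM untreated and rose 1.94-fold (0.96, SE 0.22, adjusted p = 0.00493). Of its 50-base stretches, 4.6% recur in transcripts of other genes. Elovl5, which lengthens polyunsaturated chains, measured 152, 187.3 and 160.4 CPM after dox and 192.4, 196.2 and 187.7 CPM untreated. The groups did not overlap, but the difference missed the threshold (−0.21, SE 0.08, adjusted p = 0.0633). Without dox replicate 2 it was called lower (adjusted p = 0.00581), as it was with DESeq2 (adjusted p = 0.0463), with no low-count filter (adjusted p = 0.035) and with the replicate number as a block (adjusted p = 0.0399). Per length, Elovl5 exceeded Elovl6 by 1.62 to 1.85 times in untreated libraries, while after dox the ratio was 0.981, 0.605 and 0.874 in replicates 1, 2 and 3.

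Fads1 and Fads2, neighbouring genes for the desaturases that make arachidonate and related polyunsaturated chains, fell together. Fads1 measured 20.14, 20.4 and 18.82 CPM after dox and 45.01, 42.8 and 51.87 CPM untreated (−1.24, SE 0.09, adjusted p = 1.26e-05), a fall of 2.35-fold. Fads2 measured 12.44, 8.075 and 10.44 CPM after dox and 20.34, 18.05 and 26.31 CPM untreated (−1.06, SE 0.18, adjusted p = 0.00113). Acsl3, which charges fatty acids with coenzyme A, measured 26.46, 22.83 and 25.93 CPM after dox and 39.84, 35.15 and 38.95 CPM untreated (−0.60, SE 0.09, adjusted p = 0.000487), and it overlaps Utp14b on the same strand, which was also lower.

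Of the 5 genes that control SREBP, 2 rose and 3 did not pass, beside 27% of all genes higher and 26.6% lower. Srebf2, which encodes the SREBP that mainly drives sterol genes, measured 146.4, 115.3 and 130.7 CPM after dox and 141.8, 136.3 and 163.1 CPM untreated (−0.17, 95% interval −0.40 to 0.06). Srebf1, for the SREBP that mainly drives fatty acid genes, measured 102.9, 129.8 and 100 CPM after dox and 107.9, 100.1 and 117.7 CPM untreated (0.03, −0.21 to 0.27). For both, groups overlapped and no difference was detectable with 3 libraries a group. Srebf1 overlaps Rai1 on the opposite strand over a short stretch (1.4%). Per length, Srebf2 over Srebf1 was 1.34, 0.836 and 1.23 in dox replicates 1, 2 and 3 and 1.24 to 1.3 in untreated libraries, so dox replicate 2 was the only library with more Srebf1 than Srebf2.

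Insig1, itself a well known SREBP target, had groups that overlapped throughout, with 23.36, 18.38 and 24.52 CPM after dox and 24.11, 17.64 and 24.34 CPM untreated (0.01, −0.33 to 0.34). Insig2, whose gene answers other signals, measured 28.69, 31.39 and 27.85 CPM after dox and 21.6, 20.46 and 23.18 CPM untreated and rose 1.35-fold (0.43, SE 0.09, adjusted p = 0.0029). Scap, the escort, was the clearest change among the control genes, with 302.7, 254.2 and 256.5 CPM after dox and 138.5, 143.1 and 135.6 CPM untreated (0.96, SE 0.08, adjusted p = 2.29e-05), a rise of 1.95-fold. Scap shares 13.1% of its 50-base stretches with the opposite-strand gene 5830462I19Rik, so part of its count could belong to that gene.

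Among genes of sterol movement, Stard4, a carrier of cholesterol between membranes, fell (35.08, 37.03 and 35.02 CPM after dox and 42.78, 47.36 and 48.13 CPM untreated, −0.37, SE 0.08, adjusted p = 0.00303). Nr1h2, the LXR gene that most tissues express, measured 146.1, 152 and 127.7 CPM after dox and 123.6, 121.6 and 127.2 CPM untreated and missed the threshold (0.19, SE 0.08, adjusted p = 0.0601). It was called higher without dox replicate 3 (adjusted p = 0.0111). Per length Nr1h2 was the highest of the 9 control and transport genes in both groups, at 72.28 RPKM after dox and 63.2 RPKM untreated.

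Both exporters rose. Abca1 measured 19.87, 110.6 and 26.76 CPM after dox and 8.597, 7.715 and 5.642 CPM untreated, so the groups did not overlap, but dox replicate 2 lay far above the other dox libraries. The fold was 7.14 with a wide interval (log2 fold change 2.84, SE 0.62, 95% interval 1.44 to 4.23, adjusted p = 0.00393) and 3.19 without dox replicate 2 (1.67, SE 0.19, adjusted p = 6.35e-05). Abcg1 measured 175.3, 300.7 and 158.7 CPM after dox and 103.4, 120.8 and 93.2 CPM untreated (1.00, SE 0.22, adjusted p = 0.00391), and 0.66 (SE 0.11, adjusted p = 0.000549) without dox replicate 2. Macrophages express both exporters highly. The summed macrophage markers were 102.9, 42.67 and 55.7 CPM in dox replicates 1, 2 and 3 and 19.12 to 26.98 CPM in untreated libraries. Without Lyz2, which neutrophils express too, they were 27.71, 25.97 and 20.74 CPM in dox replicates 1, 2 and 3. The same sum was 5.971 to 10.41 CPM untreated. The part of macrophages in the rise of the exporters was not tested. Over all 9 control and transport genes, 4 rose, 1 fell and 4 did not pass, beside 27% of all genes higher and 26.6% lower, with a median log2 fold change of 0.19 against 0.01 for all genes.

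Dox replicate 2 stood apart from the other dox libraries for some fatty acid genes and both exporters. It was the highest dox library for 7 of 10 fatty acid genes and the lowest for 3, against 36.1% and 36.7% of all genes. Abca1 was 4.74 times the mean of dox replicates 1 and 3, a ratio reached by 0.0326% of all genes tested, Elovl6 was 1.83 times (1.48% of genes), Abcg1 1.8 times (1.57%), Scd2 1.62 times (2.68%), Fasn 1.53 times (3.59%), Scd1 1.4 times (5.41%) and Srebf1 1.28 times (9.12%). Acly stood at 0.965 and Acsl3 at 0.872 of that mean. Among the sterol enzymes, dox replicate 2 was the lowest dox library for 10 of 16 and the highest for 1. Over all genes tested the shares were 36.7% and 36.1%. The median ratio was 0.923 for the sterol enzymes and 0.997 for all genes tested. Every sterol ratio lay inside 0.69 to 1.42, the 5th to 95th percentiles of all genes tested. Sqle stood at 0.728 of the mean of the other dox libraries (6.31% of genes at or below), Msmo1 at 0.716 (5.69%) and Cyp51 at 0.784 (9.11%). Outside the sterol enzymes, the control gene Insig1 stood at 0.768 (8.13%) and the fatty acid gene Fads2 at 0.706 (5.46%). These values were noticed in the data and describe 1 mouse, with no test.

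**Figure D4:**
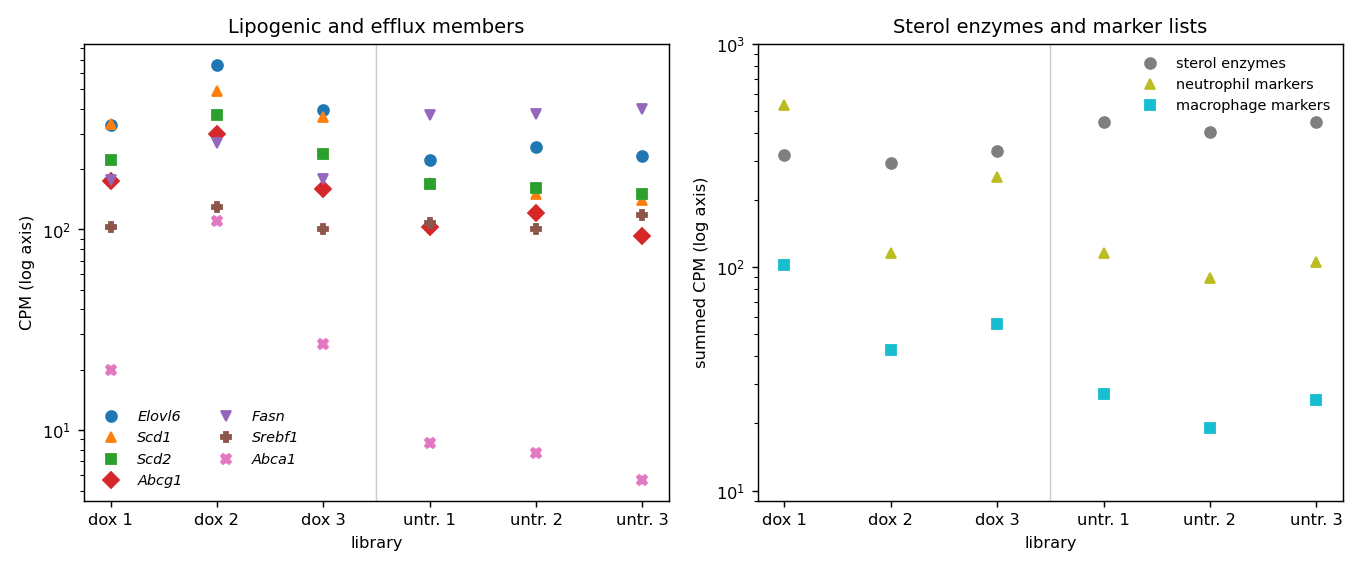
Left, CPM (logarithmic axis) of 7 lipogenic and efflux members in each dox library and then each untreated library. Right, summed CPM (logarithmic axis) of the sterol enzymes and of the neutrophil and macrophage markers in the same libraries. The 7 genes on the left are highest among dox libraries in replicate 2, where the sums on the right are lowest among dox libraries. The macrophage sum includes Lyz2, which neutrophils express too. Without it the sum was 27.71, 25.97 and 20.74 CPM in dox replicates 1, 2 and 3, lowest in replicate 3.

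The calls of the split in the fatty acid branch did not rest on that mouse. Without dox replicate 2, Elovl6 still rose (0.60, SE 0.09, adjusted p = 0.000486) and so did Scd2 (0.52, SE 0.08, adjusted p = 0.000356), each less steeply, and the branch had 3 members higher as before.

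Other genes around the pathway were counted from lists. Of 11 LXR partners and targets that are no members, 9 were tested, 5 rose and 0 fell, beside 27% of all genes higher. Mylip, the ubiquitin ligase that removes lipoprotein receptors, measured 185.1, 202.6 and 143.2 CPM after dox and 77.31, 68.16 and 53.23 CPM untreated (1.42, SE 0.16, adjusted p = 8.41e-05). Lpcat3, which loads polyunsaturated chains on phospholipids, rose by 0.48 (SE 0.10), and Apoe, the lipoprotein component, by 0.98 (SE 0.19), at 12.68 to 16.36 CPM after dox and 5.846 to 8.947 CPM untreated. The second LXR gene, Nr1h3, was called higher (1.79, SE 0.52, adjusted p = 0.0173) from very few reads, at 0.768 to 1.25 CPM after dox and 0.0671 to 0.489 CPM untreated. Smpdl3a was the other gene of the list that rose.

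Of 12 genes of sterol traffic and storage, 7 rose, 2 fell and 3 did not pass, beside 27% of all genes higher and 26.6% lower. Npc2, the lysosomal carrier that hands cholesterol out of lysosomes, measured 459.2, 421.6 and 487.7 CPM after dox and 181.1, 173.1 and 172.9 CPM untreated (1.38, SE 0.07, adjusted p = 3.485e-06). Soat1, which esterifies cholesterol for storage, rose by 0.95 (SE 0.11). Tmem97, a sterol-regulated membrane protein, fell by 1.13 on the log2 scale (SE 0.09), with 15.24 to 16.45 CPM after dox and 33.04 to 37.81 CPM untreated, and Osbpl8 was the other gene that fell.

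Of 16 genes that supply the fatty acid branch, 11 were tested, 5 fell and 2 rose (Mlxip and Acsl1), beside 26.6% of all genes lower and 27% higher. Slc25a1, the carrier that exports citrate from mitochondria to Acly, measured 108.1, 164.8 and 106.9 CPM after dox and 264.6, 288.7 and 272.1 CPM untreated (−1.12, SE 0.15, adjusted p = 0.000287), and dox replicate 2 was its highest dox library, as for Fasn. Acat2, the cytosolic thiolase before Hmgcs1, changed by −0.83 (SE 0.08) and Acsl5, another acyl-CoA synthetase, by −0.60 (SE 0.07). Of 14 genes of isoprenoid use, 7 fell and 2 rose (Rabggta and Icmt), beside the same shares of all genes, 26.6% lower and 27% higher, with Fntb, a farnesyltransferase subunit, at −0.77 (SE 0.09), Pdss1, of ubiquinone synthesis, at −0.78 (SE 0.12) and Coq2 at −0.57 (SE 0.09).

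Of 11 SREBP processing and partner genes, 4 rose and 3 fell (Nfyb, Nfya and Sp1), close to the 27% higher and 26.6% lower among all genes. Rnf139, a ubiquitin ligase of the endoplasmic reticulum, rose by 0.43 (SE 0.08), and Nfyb, a subunit of NF-Y, changed by −0.35 (SE 0.06). Of 14 glycerolipid genes, 3 rose, 2 fell (Agpat5 and Pcyt1a) and 9 did not pass, beside 27% higher and 26.6% lower among all genes. Agpat3, an acyltransferase of phosphatidic acid synthesis, measured 52.38, 42.46 and 44.43 CPM after dox and 7.479, 5.3 and 6.322 CPM untreated (2.87, SE 0.14, adjusted p = 1.89e-06). Gpam, the acyltransferase at the head of that pathway, rose by 1.23 (SE 0.08), Agpat2 by 0.87 (SE 0.20), and Agpat5 changed by −0.58 (SE 0.08).

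Of 17 genes of fatty acid oxidation, 7 fell and 3 rose, Acadvl and Slc25a20 among them, beside 26.6% of all genes lower and 27% higher. The smallest p values were those of Acadl, a dehydrogenase of long chains, at −0.64 (SE 0.08), Decr1, which handles unsaturated chains, at −0.69 (SE 0.10), and Etfa, the electron acceptor, at −0.54 (SE 0.08).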

How the data were processed

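RNA from sorted leukemia cells was measured in 6 libraries, 3 a group. CASAVA 1.8.2, featureCounts and the build mm9 are named per the submitters' processing notes. The aligner, the annotation and the strand setting used for counting were not given in the sources used here. The authors deposited unnormalized read counts for each gene beside a gene length, and single-library files repeat the same columns. Of 26286 Entrez identifiers, 24176 matched a RefSeq symbol and 2110 did not.

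Low genes were removed with filterByExpr (minimum count 10), which left 12275. TMM scaling and the quasi-likelihood test came from edgeR 4.0.16 (R 4.3.3), with Benjamini-Hochberg adjustment over all genes tested. The SE is the size of the log2 fold change divided by the square root of F, and intervals are 95% intervals built on it. RPKM used the deposited lengths. The limit that 0 allows is 3 counts per library and covers counting error only. The scripts were tested on simulated data. Alternatives were DESeq2 size factors, total counts, no filter, 1 CPM in 3 libraries, the DESeq2 1.42.0 test, voom of limma 3.58.1, a replicate block and leaving out each library.

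The members and lists were chosen with earlier results of these data known. Named genes are all members, Pax5, the 3 genes with the smallest p in each other pathway list and the 2 most abundant in each marker list. Further names behind small counts, and the paralogs and overlapping genes of members, were picked after their values were seen. A few genes of the other lists are not reported here.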

Additional observations from a re-analysis of the deposited data

How the results depend on the processing

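Of the 35 members tested, 27 kept their direction and their side of the threshold under all 13 alternatives. The 8 that did not are Mvd, Nsdhl, Acly, Elovl5 and Nr1h2, whose lost or gained calls stand beside their values above, and Hsd17b7, Insig1 and Srebf1, which passed in no setting and changed sign. Insig1 was at −0.029 with no low-count filter, at −0.0013 with total counts alone and between −0.14 and 0.12 with each library left out in turn. Srebf1 was at −0.0067 with no low-count filter and between −0.10 and 0.091 with each library left out, and Hsd17b7 lay between −0.15 and 0.019 there. The sterol enzymes called higher, 1 in the main test (Mvd), were 0 with DESeq2 and 0 with no low-count filter, and 0 to 1 with each library left out, while those called lower were 7 to 8. In the same leave-out fits 5 to 7 fatty acid genes were lower and 3 higher, 4 to 5 control and transport genes were higher and 1 lower, and over all genes 2693 to 3168 were higher and 2791 to 3193 lower. The cause of these shifts was not tested.

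The labels number the replicates 1 to 3 in both groups without saying that the numbers pair mice. Deviations from the group means correlated at 0.301, 0.287 and −0.037 between same-numbered libraries. Dox replicates 1 and 2 correlated best with their own number, and dox replicate 3 did not. With 3 libraries a group, these values cannot decide whether the numbers pair mice. With the replicate number as a block, 8 sterol enzymes were lower and 1 higher, 7 fatty acid genes lower and 3 higher, and 3434 genes were higher and 3356 lower in all. Of the members tested, Tm7sf2 held the fewest counts, 52 to 60 after dox and 33 to 43 untreated.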
